A study of Mus musculus with 2 samples.

Results

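A small set of cells in a pooled culture of mouse embryonic stem cells, sampled at 2 time points, carried many transcripts of Ramp2, the gene of receptor activity-modifying protein 2. They were chosen by a rule on raw counts of unique molecular identifiers (UMIs, each standing for 1 captured RNA molecule). A barcode needed 18000 or more UMIs from 1000 or more genes, with mitochondrial UMIs at 10% or less, and 5 or more UMIs of Ramp2. It also had to hold fewer than 8 UMIs of Gata4, Gata6, Sox7 and Sox17 together, fewer than 15 of T, Mixl1, Lhx1, Eomes and Mesp1 together, and fewer than 50 of Col1a1, Col1a2, Bgn, Mgp and S100a4 together. These 3 sums were set to leave out endoderm, mesendoderm and fibroblast cells. The rule found 197 cells among 54279 barcodes that passed the quality filters: 94 of 25962 at time 1 and 103 of 28317 at time 2. The question asked of them was which lineage they resembled when set beside all other filtered barcodes of the same library.

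The study pooled 9 embryonic stem cell lines of the mouse strain C3H/HeSn-Paf/J, 3 each from XX, XO and XY embryos. The pool was sequenced as single cells at an early passage (time 1) and again after 10 further passages (time 2), with 1 library per time point. All lines grew on gelatin with irradiated mouse embryonic fibroblast (MEF) feeders, in medium with serum and leukaemia inhibitory factor. Passage number is what the labels give as the treatment that separates the libraries. Cells were not assigned to lines here, so each library counted as 1 sample, no p-value could be computed, and all intervals below cover counting error alone.

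RAMP2 is a small membrane protein that pairs with the calcitonin receptor-like receptor, encoded by Calcrl, and turns it into a receptor for the peptide adrenomedullin. The receptor signals through the stimulatory G protein and cyclic AMP, and it is best known from blood and lymphatic endothelium, where mice without Ramp2, Calcrl or Adm die in mid-gestation with vascular defects. In the early embryo, endothelial and blood cells arise together from mesoderm that passes through a state marked by the transcription factor Etv2 and the VEGF receptor Kdr, followed by Tal1, Lmo2, Gata2 and Fli1.

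Because Ramp2 chose the cells, its own level is a description. It was 89.6 CPM (the summed UMIs of a gene over those of all genes in the group, on the usual CPM scale) in the chosen cells of time 1 and 5.95 CPM in the other barcodes of that library. At time 2 the values were 217 and 3.93 CPM. Ramp2 lies on chromosome 11, 101246028 to 101259546 on the plus strand (GRCm38), where it overlaps Vps25 on the same strand, so reads of these neighbours could be split differently by another counting. The median cell held 6 Ramp2 UMIs at time 1 (maximum 72) and 9 at time 2 (maximum 81). Just inside the limit, 36 cells of time 1 and 20 of time 2 had exactly 5 Ramp2 UMIs. Just outside it, 98 and 42 barcodes that passed all 3 sums had exactly 4. The share of Ramp2-expressing cells was 0.362% at time 1 (exact Clopper-Pearson 95% interval 0.293 to 0.443) and 0.364% at time 2 (0.297 to 0.441). The near-equal shares held only at this minimum among those tried: with at least 3 UMIs they were 1.95% and 0.759%, and with at least 10 UMIs 0.0616% and 0.170%.

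**Figure D1:**
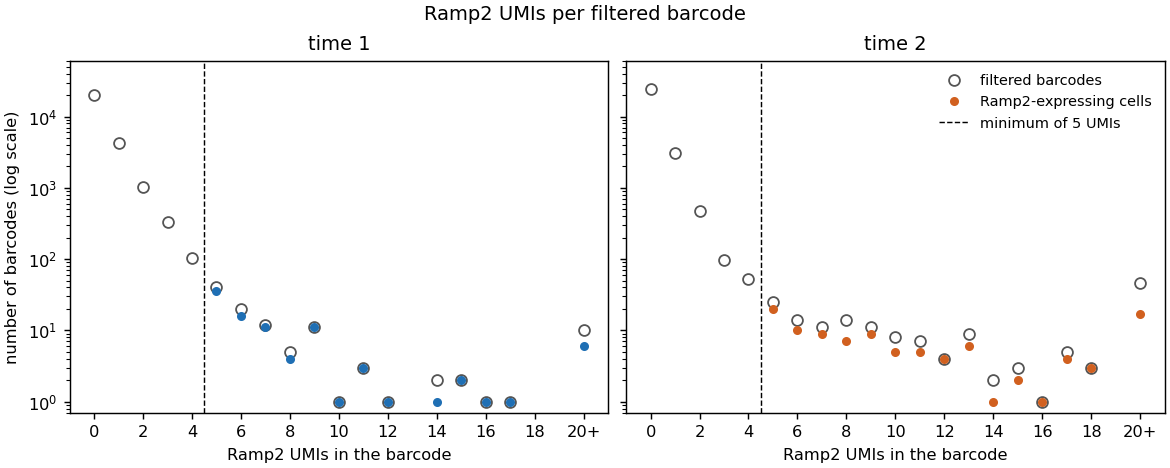
Number of filtered barcodes (open circles) and of Ramp2-expressing cells (filled circles) at each count of Ramp2 UMIs, on a logarithmic vertical axis, for time 1 (left) and time 2 (right). The numbers fall steeply up to 5 UMIs, and barcodes with 20 or more UMIs numbered 10 at time 1 and 46 at time 2, of which 6 and 17 also met the limits on the other genes.

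The libraries held 1735810403 UMIs at time 1 and 1843588321 at time 2. The chosen cells were deeper than the rest at time 1, with a median of 69776.5 against 44964.5 UMIs, and close to the rest at time 2, with 50629 against 52580. Of the chosen cells of time 1, 7 held over 250000 UMIs. No chosen cell shared its barcode sequence with a filtered barcode of the other library, although 194 filtered barcodes in all did. The doublet caller Scrublet marked no barcode in either library at its automatic threshold, so no doublets were called. Doublets therefore remain in the data, and the 10% of barcodes with the highest scores were used as a marker of possible doublets. They made up 4.26% of the chosen cells at time 1 (4 cells) and 20.4% at time 2 (21 cells), against 10.2% and 10.4% of other barcodes. Xist, the RNA that coats the inactive X chromosome, reached 2 UMIs in 16 of 94 chosen cells at time 1 and in 0 of 103 at time 2 (exact upper limit 3.52%), against 20.3% and 3.69% of other barcodes. Thinned to 10000 UMIs, the shares were 3.19% against 7.89% at time 1 and 0 against 1.20% at time 2. Transcripts of 4 Y-linked genes reached 2 UMIs in 21.3% of chosen cells at time 1 and 11.7% at time 2, against 11.4% and 8.97%, and after thinning in 2.13% against 2.06% and 0.971% against 1.40%.

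To show the DNA in front of genes that turned up with Ramp2, the 250 bases before the start of Ctla2a, Etv2, Kdr and Tal1 are given below, 5′ to 3′ on the strand of the gene, from RefSeq (GRCm38.p6). Ctla2a is the gene with the highest ratio in the chosen cells, and the other 3 encode early regulators and the receptor of the endothelial and blood lineages. Capitals mark AGGAAG, a core bound by ETS factors such as Etv2 and Fli1, and AGATAA, a core bound by GATA factors, each searched on both strands (CTTCCT and TTATCT on the other).
Ctla2a, chr13:60936626-60936875, minus strand: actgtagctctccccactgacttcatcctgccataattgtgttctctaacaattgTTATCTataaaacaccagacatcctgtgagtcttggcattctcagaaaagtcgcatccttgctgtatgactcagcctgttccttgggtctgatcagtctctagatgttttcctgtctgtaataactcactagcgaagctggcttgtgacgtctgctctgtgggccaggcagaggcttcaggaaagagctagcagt
Etv2, chr7:30635853-30636102, minus strand: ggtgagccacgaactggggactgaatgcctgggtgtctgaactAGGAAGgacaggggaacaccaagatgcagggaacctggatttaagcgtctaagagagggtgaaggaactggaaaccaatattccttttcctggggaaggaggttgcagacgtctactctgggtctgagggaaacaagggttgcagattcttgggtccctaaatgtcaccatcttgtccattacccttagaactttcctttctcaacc
Kdr, chr5:75978456-75978705, minus strand: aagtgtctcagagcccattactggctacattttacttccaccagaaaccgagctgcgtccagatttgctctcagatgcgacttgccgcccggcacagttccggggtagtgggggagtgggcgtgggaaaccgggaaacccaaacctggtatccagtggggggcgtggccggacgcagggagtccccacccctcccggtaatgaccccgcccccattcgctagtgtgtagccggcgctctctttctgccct
Tal1, chr4:115056176-115056425, plus strand: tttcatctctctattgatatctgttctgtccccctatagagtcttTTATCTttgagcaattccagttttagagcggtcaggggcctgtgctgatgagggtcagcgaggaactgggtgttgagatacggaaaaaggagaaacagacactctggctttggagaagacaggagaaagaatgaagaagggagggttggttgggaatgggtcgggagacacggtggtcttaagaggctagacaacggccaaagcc
The Etv2 window held 1 ETS core, the Ctla2a and Tal1 windows 1 GATA core each, and the Kdr window neither. Over all 32851 promoter windows of the table, 29.5% held AGGAAG and 9.99% held AGATAA. Among the 15 genes named below as higher, 10 had an entry: 5 of these held the ETS core in at least 1 listed window (Ctla2a, Dusp2, Etv2, Igf2 and Mest) and 1 held the GATA core (Ctla2a). The Ctla2a window shown above held no ETS core, so its match lay in another listed window. A gene with several listed starts had several windows to match, so these counts are not on equal terms with the shares over single windows. Fli1, Lmo2, Ecscr, Rnd2 and Phlda1 had no entry. A match is a description of the letters and not a bound site.

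Across all genes, the log2 ratio of CPM plus 1 between the chosen cells and all other barcodes was taken in each library for genes with at least 10 CPM in either group. At time 1, 53 of 7432 genes (0.713%) were at least 2-fold higher and 62 (0.834%) at least 2-fold lower in the chosen cells. At time 2, 363 of 7457 (4.87%) were higher and 122 (1.64%) lower. The higher genes of time 1 were almost all among those of time 2: 52 were higher in both, which is 98.1% of the time 1 genes and 14.3% of the time 2 genes. For lower genes the number in both was 36 (58.1% and 29.5%), and no gene was called in opposite directions. Of the genes used by the rule itself, 1 was among the higher and 5 among the lower at time 1, and 2 and 5 at time 2. With the cells of 5 or 6 Ramp2 UMIs left out, which leaves 42 and 73 cells, the counts of higher genes were 150 at time 1 and 511 at time 2, and those of lower genes 84 and 207. Leaving out barcodes of over 250000 UMIs gave 92 at time 1. The shares above hold for the minimum of 5 Ramp2 UMIs: at 3 or more, 6 genes were higher and 44 lower at time 1 and 157 and 57 at time 2, and at 10 or more 386 and 289, and 666 and 313. Without the 10% highest doublet scores, the lower genes of time 2 went from 122 to 294.

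Summed over the chosen cells, the partner receptor of Ramp2 was at a low level, and so were most of its possible ligands. Calcrl was at 0.744 CPM in the chosen cells of time 1 (7 UMIs) and 0.349 CPM in other barcodes, and at 4.63 CPM (30 UMIs, exact Poisson 95% interval 3.12 to 6.61) against 0.196 CPM at time 2. The interval at time 2 lies above the level in other barcodes, and the receptor RNA was detected in few cells: 14 of 103 had a Calcrl UMI, and the highest of them reached 295 CPM. In the chosen cells of 20 or more Ramp2 UMIs Calcrl was higher, at 7.84 CPM at time 1 and 20.3 CPM at time 2. A Calcrl UMI was found in 3 of these 6 cells at time 1 and in 6 of 17 at time 2. With every barcode thinned to 10000 UMIs by random draw, 5.83% of chosen cells and 0.184% of other barcodes had a Calcrl UMI. Adm, which encodes adrenomedullin, was at 5.00 against 4.21 CPM at time 1 and 4.32 against 1.94 CPM at time 2. Ramp3, the other subunit that makes an adrenomedullin receptor, was at 10.4 against 8.65 CPM and at 6.63 against 7.20 CPM, and Ramp1, which makes the receptor for calcitonin gene-related peptide, was at or under 0.425 CPM in the chosen cells of both libraries. Calca, the gene of calcitonin and that peptide, was at 20.8 against 19.2 CPM at time 1 and at 11.7 against 25.4 CPM at time 2, where it was the only one of the 5 ligand genes to reach the 10 CPM minimum, and lower. Adm was under that minimum.

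Downstream of the receptor, 24 genes of cyclic AMP signalling were followed. Of the 7 that reached 10 CPM in either group of cells at time 1, none differed 2-fold, and of 8 at time 2, 2 were higher (4.87% of all genes) and none lower. These were Gnas, the stimulatory G protein alpha subunit, at 400 against 150 CPM (log2 ratio 1.41), and Prkar2b, a regulatory subunit of protein kinase A, at 25.3 against 3.97 CPM (log2 ratio 2.40). At time 1 Gnas was at 336 against 253 CPM and Prkar2b at 9.89 against 6.31 CPM. Gnas was not particular to the chosen cells. Barcodes past the fibroblast limit with fewer than 5 Ramp2 UMIs had it at 990 CPM at time 1 and 727 CPM at time 2. Such barcodes past the mesendoderm limit had it at 486 and 387 CPM, and those past the endoderm limit at 532 and 346 CPM. Prkar2b was at 12.7 and 15.5 CPM in those past the fibroblast limit. At time 2 Prkar2b reached the minimum through the chosen cells alone, so the count of higher genes there is no support. The median log2 ratio of the genes of the list at the minimum was 0.11 at time 1 and 0.55 at time 2, beside -0.085 and 0.0066 over all genes at the minimum. Over all 24 genes it was -0.03 and 0.33.

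The genes named here are the 15 highest and 15 lowest by the ratio nearer 0 of the 2 libraries, without the genes of the rule. First among the higher ones was Ctla2a, a cysteine protease inhibitor gene first known from activated T cells (chromosome 13, 60934155 to 60936625, minus strand). It was at 97.0 CPM (90.8 to 103) against 4.74 CPM at time 1, and at 231 CPM (220 to 243) against 2.97 CPM at time 2, log2 ratios of 4.09 and 5.87. The summed level came from part of the cells: 36 of 94 had a Ctla2a UMI at time 1, with a median of 0 and a maximum of 3516 CPM, and 72 of 103 at time 2, with a median of 128 CPM. Ctla2a was not particular to these cells. Barcodes past the fibroblast limit with fewer than 5 Ramp2 UMIs had it at 148 CPM at time 1, with a UMI in 200 of 396. At time 2 they had it at 63.8 CPM, with a UMI in 212 of 722. Ctla2b, the near-identical neighbour of Ctla2a, was at 13.2 against 0.603 CPM and 25.9 against 0.246 CPM in the chosen cells and other barcodes. Reads of this pair can be split between the 2 genes by the counting. Fli1, an ETS transcription factor of endothelium and megakaryocytes (chromosome 9, 32422204 to 32542861, minus strand), was at 21.8 against 0.369 CPM and at 66.6 against 0.436 CPM. Counting in barcodes thinned to 10000 UMIs, 25.5% of chosen cells at time 1 and 46.6% at time 2 had a Fli1 UMI, against 0.321% and 0.305% of other barcodes. In barcodes of under 1000 UMIs, taken here as background, Fli1 was at 0.527 and 0.627 CPM. Whether these barcodes hold free RNA was not tested. The Poisson intervals of the sums lay above both the other barcodes and this background for Ctla2a and Fli1. Both genes were picked for their high ratios, so this is no support. The intervals also leave out the spread between cells.

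Further transcription factors of the blood and vessel lineages were among the 15. Gata2, needed by haematopoietic stem cells, was at 21.5 against 1.66 CPM at time 1 and 49.1 against 2.19 CPM at time 2. Lmo2, the bridging protein of the Tal1 and Gata complex, was at 23.0 against 2.72 CPM and 60.0 against 1.69 CPM. Etv2, the ETS factor that starts the endothelial and blood programme in mesoderm, was at 57.8 against 15.3 CPM and 61.4 against 15.8 CPM. The log2 ratio of Etv2 was 1.85 and 1.89, but it depended on the minimum of Ramp2: at 10 or more UMIs it was 1.53 at time 1 and 0.80 at time 2, short of 2-fold, and at 3 or more 1.30 and 2.32. Etv2 RNA was also present in other barcodes, 11.2% and 11.3% of which had an Etv2 UMI at 10000 UMIs, and it reached 12.9 and 14.4 CPM in the barcodes of under 1000 UMIs.

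Surface and matrix genes came next, and Dusp2 and Phlda1, which are neither, are given with them. Ecscr, an endothelial surface protein, was at 34.9 against 6.59 CPM at time 1 and 91.0 against 4.12 CPM at time 2. F2r, the thrombin receptor PAR1, was at 30.2 against 8.65 CPM and 80.7 against 5.79 CPM. Col4a1 and Col4a2 encode the chains of the main collagen of basement membranes, and they lie head to head on chromosome 8 with overlapping ends. Col4a1 was at 45.4 against 12.7 CPM and 182 against 15.8 CPM, and Col4a2 at 22.5 against 6.87 CPM and 109 against 8.74 CPM. The 2 collagen genes were not particular to the chosen cells. Barcodes past the fibroblast limit with fewer than 5 Ramp2 UMIs had Col4a1 at 194 CPM at time 1 and 137 CPM at time 2, and Col4a2 at 137 and 96.7 CPM. In such barcodes past the endoderm limit, Col4a1 was at 104 and 450 CPM and Col4a2 at 54.0 and 226 CPM. Dusp2, a MAP kinase phosphatase, was at 30.4 against 3.01 CPM and 63.2 against 2.12 CPM. Phlda1, a pleckstrin-homology-like protein, was at 89.9 against 32.7 CPM and 88.5 against 15.1 CPM. With other barcodes weighted to the UMI deciles of the chosen cells, which were deeper at time 1, the time 1 log2 ratios of Phlda1 (0.95) and Col4a2 (0.99) were short of 2-fold. At 3 or more Ramp2 UMIs, those of Col4a1 (0.49), Col4a2 (0.28), F2r (0.57) and Phlda1 (0.42) were.

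Igf2, Mest and Igfbp4 completed the 15 together with Rnd2. Igf2, the paternally expressed insulin-like growth factor 2, was at 24.9 against 2.37 CPM at time 1 and 108 against 3.26 CPM at time 2. Mest, also paternally expressed, was at 157 against 41.9 CPM and 312 against 34.1 CPM. H19, the maternally expressed RNA next to Igf2, was not among the 15. It was at 187 against 101 CPM at time 1 (log2 ratio 0.89) and at 326 against 19.7 CPM at time 2 (log2 ratio 3.98). Igfbp4, a binding protein of these growth factors, was at 76.9 against 20.9 CPM and 154 against 12.5 CPM. At 3 or more Ramp2 UMIs, Mest (0.83), Igfbp4 (0.75) and Rnd2 (0.92) were short of 2-fold at time 1. Igf2, Mest, Rnd2, Fli1, Lmo2, Ecscr and Phlda1 overlap transcripts on the opposite strand (Igf2os, Copg2 and Gm44296 for Mest, Vat1, Gm27201, 4931422A03Rik, 1700066B19Rik and Gm28592), and the strand setting of the counting is not given in the sources used here.

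**Figure D2:**
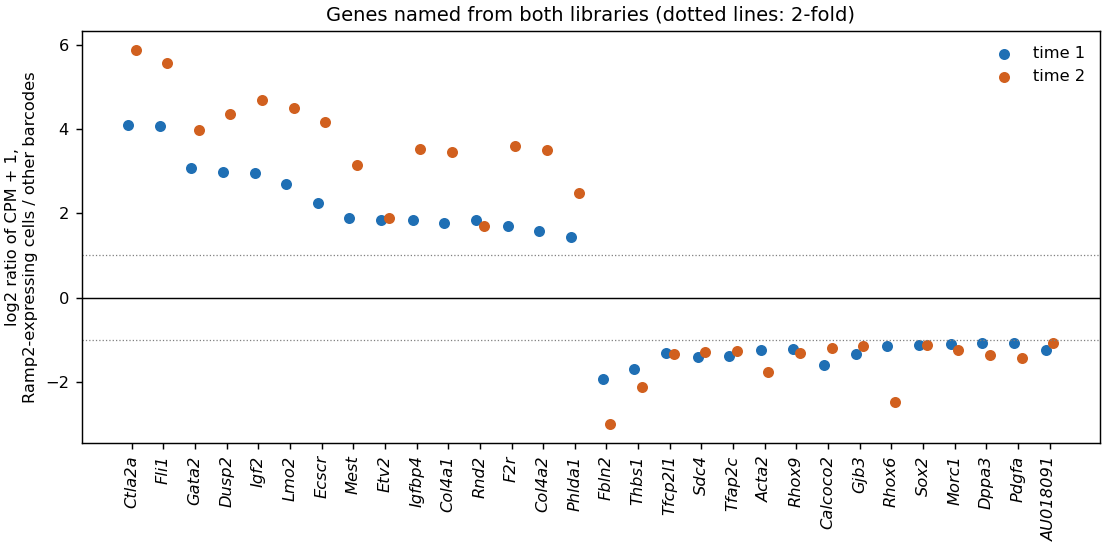
Log2 ratio of CPM plus 1, Ramp2-expressing cells over all other filtered barcodes, for the 30 named genes at time 1 (blue) and time 2 (orange). Dotted lines mark a 2-fold difference. The 15 higher genes run from 1.43 (Phlda1) to 4.09 (Ctla2a) at time 1 and from 1.70 (Rnd2) to 5.87 (Ctla2a) at time 2.

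The endothelial list, 18 genes of vessel-forming cells, had a median log2 ratio over all its genes of 1.07 at time 1 and 2.54 at time 2, the highest of the 26 gene lists followed when every listed gene is counted. Over genes at the minimum alone, the 3 of the haematopoietic list below had a higher median, 3.06 and 4.06. Of its 8 genes at 10 CPM or more at time 1, 5 were at least 2-fold higher (0.713% of all genes) and none lower. At time 2, 10 of 11 were higher (4.87% of all genes) and none lower. These counts are no support, since a gene could reach the minimum through the chosen cells alone: among the higher genes, Kdr and Ecscr at time 1 and Cdh5, Kdr, Flt1, Tek, Esam, Eng and Ecscr at time 2 were under 10 CPM in other barcodes. Egfl7, Etv2 and Plvap were over 10 CPM in other barcodes too and were higher in both libraries. Etv2 and Ecscr of this list are also among the 15 named higher genes. The list was chosen with earlier results of these data known, so its direction is no independent evidence. Without the 10% highest doublet scores the medians were 1.12 and 2.87, and with cells of 5 or 6 Ramp2 UMIs left out 1.71 and 2.84. Cells of at least 3 Ramp2 UMIs gave 0.42 and 1.88, with 2 of 6 genes higher at time 1. A pseudocount of 5 CPM gave 0.66 and 1.63, with 4 of 8 genes higher at time 1 and Plvap no longer among them.

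Cdh5, which encodes the adhesion protein VE-cadherin and marks endothelium, was at 6.59 CPM (5.05 to 8.45) against 0.155 CPM at time 1 and at 63.4 CPM (57.4 to 69.8) against 0.644 CPM at time 2. A Cdh5 UMI was found in 17 of 94 chosen cells at time 1 and in 63 of 103 at time 2. For background, barcodes past the fibroblast limit and with fewer than 5 Ramp2 UMIs were used, which should lack the gene. Of these, 2 of 396 at time 1 (median 55045.5 UMIs) and 9 of 722 at time 2 (median 67583.5 UMIs) had a Cdh5 UMI. Cdh5 was not absent from all barcodes of low Ramp2. Those past the endoderm limit with fewer than 5 Ramp2 UMIs had it at 5.90 CPM at time 2, with a UMI in 45 of 211. At time 1 they had it at 0.275 CPM, with a UMI in 1 of 120. Kdr, the main VEGF receptor of endothelium and its precursors, was at 13.7 CPM (11.5 to 16.3) against 0.583 CPM and at 52.9 CPM (47.5 to 58.8) against 0.934 CPM. Esam, an endothelial junction protein, was at 9.67 against 0.988 CPM and 44.9 against 1.82 CPM. The intervals of these 3 genes lay above the other barcodes in each library. The list was chosen with earlier results of these data known, so this is no support.

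Flt1, another VEGF receptor, was at 28.1 against 15.0 CPM at time 1, short of 2-fold, and at 59.9 against 5.15 CPM at time 2. Plvap, which forms the diaphragms of endothelial pores, was at 25.8 against 11.99 CPM and 97.8 against 16.7 CPM. Egfl7, a secreted angiogenic factor, was at 113 against 52.3 CPM and 250 against 48.1 CPM. The receptor genes Tek and Tie1 were low: Tek was at 3.40 against 1.76 CPM and 14.2 against 1.37 CPM, and Tie1 at 1.81 against 0.217 CPM and 9.56 against 0.185 CPM. Vwf, the clotting factor stored in mature endothelium, did not differ 2-fold, at 3.83 against 5.60 CPM and 4.16 against 2.96 CPM. Robo4, a guidance receptor of vessels, was at 0.319 against 0.222 CPM and 0.926 against 0.667 CPM. Emcn, a sialomucin of veins and capillaries, had 1 UMI at time 1 and 22 at time 2, or 3.39 against 0.0922 CPM. Pecam1, which embryonic stem cells also express, was at 19.3 against 26.6 CPM at time 1 and 43.8 against 25.8 CPM at time 2.

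**Figure D3:**
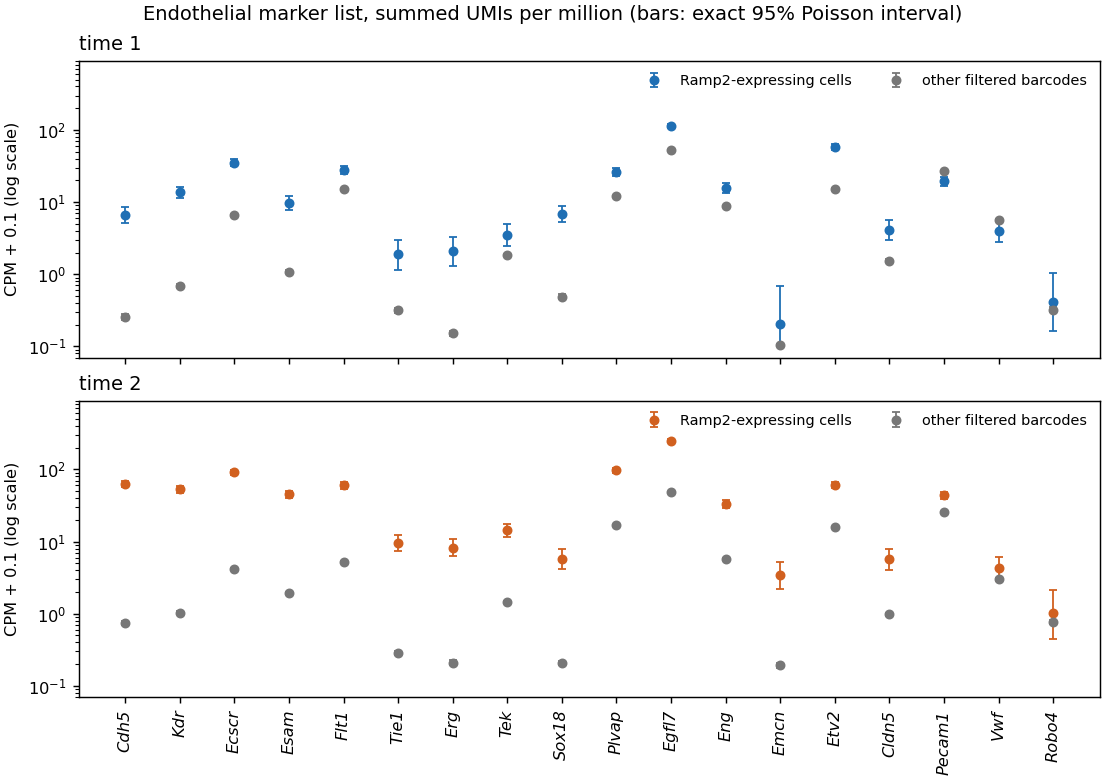
Level of each of the 18 endothelial genes in CPM plus 0.1 on a logarithmic axis, in Ramp2-expressing cells (coloured) and other filtered barcodes (grey), for time 1 (top) and time 2 (bottom); bars are exact 95% Poisson intervals of the summed UMIs. Cdh5 and Kdr had the highest log2 ratios at time 2 (5.29 and 4.80), and the points of Robo4 and Vwf lie close together.

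Among early blood regulators, Gata2, Lmo2 and Tal1 were higher in the chosen cells, while genes of later blood cells stayed under 10 CPM. These 3 of the 12 genes of the haematopoietic list reached the minimum in each library, and they did so through the chosen cells alone, so their number is no support. Tal1, the helix-loop-helix factor that starts blood formation, was at 10.8 CPM (8.84 to 13.2) against 0.424 CPM at time 1 and 24.8 CPM (21.2 to 29.0) against 0.552 CPM at time 2. Itga2b, the surface marker CD41 of the first blood progenitors, was at 2.55 against 1.23 CPM and 7.40 against 0.688 CPM. Runx1, needed for the step from endothelium to blood, was at 3.30 against 4.35 CPM and 8.02 against 3.91 CPM. The embryonic globin gene Hbb-bh1 had 0 UMIs at time 1 and 11 at time 2, and Hba-x had 0 in both. The list median was 0.40 at time 1 and 0.95 at time 2. It was 0.15 and 0.53 at 3 or more Ramp2 UMIs, 1.56 and 1.38 at 10 or more, and 0.16 and 0.44 with a pseudocount of 5 CPM. Of 12 macrophage genes, Lyz2, which encodes a lysozyme, was the only one at the minimum at time 1, and it was lower, at 0.850 against 17.7 CPM (0.834% of all genes were lower). None reached the minimum at time 2, so no macrophage gene could be called there. Csf1r had 3 UMIs at time 1 and 0 at time 2.

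The genes of naive and core pluripotency that differed 2-fold were all lower in the chosen cells, and how many did depended on which cells were chosen. Of the 13 genes of naive pluripotency, 5 of the 12 at the minimum were at least 2-fold lower at time 1 (0.834% of all genes) and 6 of 13 at time 2 (1.64% of all genes), none was higher, and the list medians were -0.90 and -0.87. Without the 10% highest doublet scores, 10 of 13 were lower at time 2 and the median was -1.34. With cells of 5 or 6 Ramp2 UMIs left out, 2 of 12 were lower at time 1 (median -0.89) and 5 of 13 at time 2. At least 10 Ramp2 UMIs gave 9 of 12 at time 1 (median -1.38) and 6 of 13 at time 2, and at least 3 gave 3 in each library. With Sox7 and Sox17 taken out of the rule, 8 of 13 were lower at time 2 (median -1.04). Esrrb, Tfcp2l1 and Klf4 are transcription factors of this state. Esrrb was at 10.7 against 25.4 CPM and 19.9 against 42.3 CPM, and Tfcp2l1 at 8.72 against 23.2 CPM and 22.8 against 59.3 CPM. Klf4 was at 23.3 against 52.7 CPM at time 1 and 62.5 against 109 CPM at time 2, where it was short of 2-fold. The core list, 10 genes, had medians of -0.21 and -0.53, with 2 genes lower in each library, Sox2 and Nanog. At time 1 this fell to 0 of 10 with decile weighting or at least 3 Ramp2 UMIs, and to 1 of 10 with TMM scaling or without barcodes over 250000 UMIs. At least 10 Ramp2 UMIs gave 3 of 10 at time 1 (median -0.80) and 6 of 10 at time 2 (median -1.05), and at least 3 gave 1 of 10 at time 2. Sox2 was at 100.0 against 218 CPM and 122 against 267 CPM, and Nanog at 55.1 against 115 CPM and 42.4 against 107 CPM. Pou5f1, the central factor of pluripotency, was at 658 against 676 CPM at time 1 and 531 against 757 CPM at time 2.

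The 15 named lower genes included Sox2, Tfcp2l1, Dppa3 (the maternal factor Stella), Tfap2c, Morc1 and the X-linked homeobox genes Rhox6 and Rhox9, all of them expressed in embryonic stem cells or the germline. Dppa3 was at 106 against 225 CPM and 62.0 against 161 CPM. Rhox6 was at 60.2 against 134 CPM and 10.0 against 60.0 CPM. Sdc4, a surface proteoglycan, was at 46.6 against 126 CPM and 42.9 against 106 CPM. The matrix and muscle genes Fbln2, Thbs1 and Acta2 were also among the 15, but their direction depended on the barcodes compared. Set against only those other barcodes that also passed the 3 sums, which leaves out the fibroblasts, the log2 ratio of Acta2 was 0.16 at time 1 and 0.92 at time 2, that of Fbln2 0.21 and -0.35, and that of Thbs1 -0.11 and 0.52. Beside all other barcodes the ratio of Acta2 was -1.25 and -1.76. With decile weighting, the time 1 ratios of Sox2 (-0.91), Dppa3 (-0.91), Rhox6 (-0.99) and Morc1 (-0.99) were short of 2-fold. So were Acta2 (-0.81), Sox2 (-0.94), Morc1 (-0.87) and Dppa3 (-0.86) at time 1 and Tfap2c (-0.97) and Sox2 (-0.85) at time 2 at 3 or more Ramp2 UMIs. At 10 or more, Rhox9 (-0.75) and Rhox6 (-0.57) at time 1 and Rhox9 (-0.70) at time 2 fell short. With cells of 5 or 6 UMIs left out, Tfcp2l1 (-0.99) and Rhox6 (-0.90) at time 1 did.

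Among 13 genes of the primed epiblast, the state after naive pluripotency, none of the 12 at the minimum differed 2-fold at time 1. At time 2, 1 of 11 was higher (4.87% of all genes), Sox4, at 193 against 51.3 CPM. The list medians were 0.299 and -0.186. The background for the lists of other lineages was 0.713% of all genes higher and 0.834% lower at time 1, and 4.87% and 1.64% at time 2. Of 14 trophoblast genes, 6 reached the minimum at time 1 and 4 at time 2. None of these was higher, and Tfap2c, Rhox6 and Rhox9 were lower in both libraries. All of these lower genes are also expressed in embryonic stem cells or the germline, as said above. Of 18 primitive and parietal endoderm genes beyond those of the rule, 6 reached the minimum in each library. Col4a1 and Col4a2 were higher in both libraries, and Col4a2 reached the minimum through the chosen cells alone. Sparc, a matrix protein, was higher at time 2, at 457 against 224 CPM, while Fst, an activin-binding protein, was lower at time 2. With other barcodes weighted to the UMI deciles of the chosen cells, 1 gene of the list was higher at time 1 and 2 at time 2, and with TMM scaling 2 at time 2. The endoderm uptake genes Dab2, Amn and Cubn were at 5.09 CPM or less, and Afp and Ttr had 2 and 0 UMIs at time 1 and 0 at time 2. Of the 16 fibroblast genes beyond the rule, 7 reached the minimum in each library. Vim was higher at time 2 (698 against 228 CPM), Fbln2 and Igfbp7 were lower in both libraries, and the list medians were -0.79 and -0.56. These values depended on the barcodes compared: against only those passing the 3 sums, the medians were 0.17 and 0.45, with 1 of 4 genes at the minimum higher at time 1, 4 of 5 at time 2, and none lower. With decile weighting, 7 of 11 were lower at time 1 and the median was -1.44. The lists of mesendoderm, cardiac mesoderm, neural and neural crest genes had medians between -0.30 and 0.036, and of their 6 genes at the minimum at time 1, 5 of them neural and none cardiac or neural crest, none differed 2-fold. At time 2 Nes and Msx1 were higher and the signalling genes Fgf8 and Fgf17 lower. Tnnt2 of cardiac muscle was at 0.638 against 0.513 CPM and 8.48 against 0.446 CPM, below the minimum. Replication and mitosis genes, 12 each, were all within 2-fold in both libraries.

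The endothelial RNA was concentrated in the cells with most Ramp2, given here as a description of cells ordered by the gene that chose them. At time 1 the summed level of the 18 endothelial genes was 252 CPM in the 36 cells of 5 Ramp2 UMIs, 203 CPM in the 16 of 6, 349 CPM in the 26 of 7 to 9, 491 CPM in the 10 of 10 to 19 and 1414 CPM in the 6 of 20 or more. At time 2 the same groups of 20, 10, 25, 31 and 17 cells gave 434, 390, 594, 1049 and 1724 CPM. Apart from the cells of 6 UMIs, which were below those of 5, each group was above the one before it. Etv2 of the same list did not follow the sum: it was at 82.9 CPM in the cells of 5 Ramp2 UMIs and 29.4 CPM in those of 20 or more at time 1, and at 101 and 26.1 CPM at time 2. Barcodes that passed the 3 sums were at 144 and 124 CPM with 0 Ramp2 UMIs and at 185 and 326 CPM with 4. Pou5f1 went the other way: its median over cells was 687 CPM at 5 Ramp2 UMIs and 176 CPM at 20 or more at time 1, and 636 and 40.3 CPM at time 2. To set depth aside, each barcode was thinned to 10000 UMIs and the endothelial genes with a UMI were counted. At least 4 of 18 were found in 22 of 94 chosen cells at time 1 (23.4%, 15.3 to 33.3) and 70 of 103 at time 2 (68.0%, 58.0 to 76.8), against 1.75% and 1.17% of other barcodes.

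The chosen cells also resembled one another in genes the rule did not use. In a space of 30 principal components of 2000 variable genes without those of the rule, 19.1% of the 15 nearest barcodes of a chosen cell were chosen cells at time 1 and 49.3% at time 2, where chosen cells made up 0.362% and 0.364% of barcodes. This was uneven: 16 of 94 cells at time 1 and 57 of 103 at time 2 had at least 8 chosen cells among their 15 neighbours, and 53 and 90 had at least 1. With barcodes thinned to 10000 UMIs, the means were 14.4% and 46.9%.

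Clustering of the 197 cells alone, done after their values had been seen, split them into 6 clusters, whose genes describe the cells and were not tested. The clusters are called by their leading gene and were given no lineage name. The Gng11-led cluster (42 cells, 7 of time 1 and 35 of time 2) had Cdh5 and Plvap of the endothelial list and Ctla2a among its 10 leading genes. In it Cdh5 was at 169 CPM with a UMI in 40 of 42 cells, Kdr at 99.3 CPM, and Pou5f1 had a median of 72.5 CPM over cells. Calcrl reached 13.9 CPM there, with UMIs in 13 cells, and Cd34 97.7 CPM in 35 cells. The Lmo2-led cluster (37 cells, 13 and 24), with Lmo2 and Gata2 of the haematopoietic list among its leading genes, had Lmo2 at 154 CPM, Gata2 at 127 CPM in all 37 cells, Tal1 at 53.9 CPM and Etv2 at 135 CPM, with Cdh5 at 10.3 CPM and Pou5f1 at a median of 372 CPM. Thus Etv2 was higher beside lower Cdh5 in the Lmo2-led cluster, and lower (20.1 CPM) beside higher Cdh5 in the Gng11-led cluster. How many cells of each library fell in a cluster follows from how the cells were grouped and is not read as a change between time points.

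The other clusters kept pluripotency RNA at a higher level. The Gbp2-led cluster (66 cells, 55 and 11) had Pou3f1, Dnmt3b and Fgf5 of the primed epiblast among its leading genes, Pou5f1 at a median of 623 CPM, and Cdh5 at 1.76 CPM. Its cells had a median of 0 chosen cells among 15 neighbours, and a median of 6 Ramp2 UMIs. The Fabp3-led cluster was the 7 cells of time 1 with over 250000 UMIs, with 0 UMIs of Cdh5, Kdr, Fli1 and Tal1. Ramp2 there was at 16.4 CPM, so 5 UMIs were reached at a CPM nearer to that of other barcodes than in the rest of the chosen cells. The Cck-led cluster held 12 cells of time 1, with Cdh5 at 8.08 CPM and Nanog at 99.2 CPM. The Tbx3-led cluster (33 cells, all of time 2) joined RNA of naive pluripotency and of endothelium: Tbx3, Klf4 and Tfcp2l1 were among its leading genes, Sox2 was at 210 CPM, and Cdh5 was at 35.2 CPM with a UMI in 21 of 33 cells. These cells had a median of 85098 UMIs, and 19 of 33 (57.6%) were among the 10% highest doublet scores, against none in the Gng11-led and Lmo2-led clusters. Whether they are joined pairs of cells was not tested. Etv2 was not confined to the Lmo2-led cluster. It was at 84.7 CPM in the Gbp2-led cluster, with a UMI in 52 of 66 cells. In the Cck-led, Fabp3-led and Tbx3-led clusters it was at 12.7, 32.7 and 29.7 CPM.

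**Figure D4:**
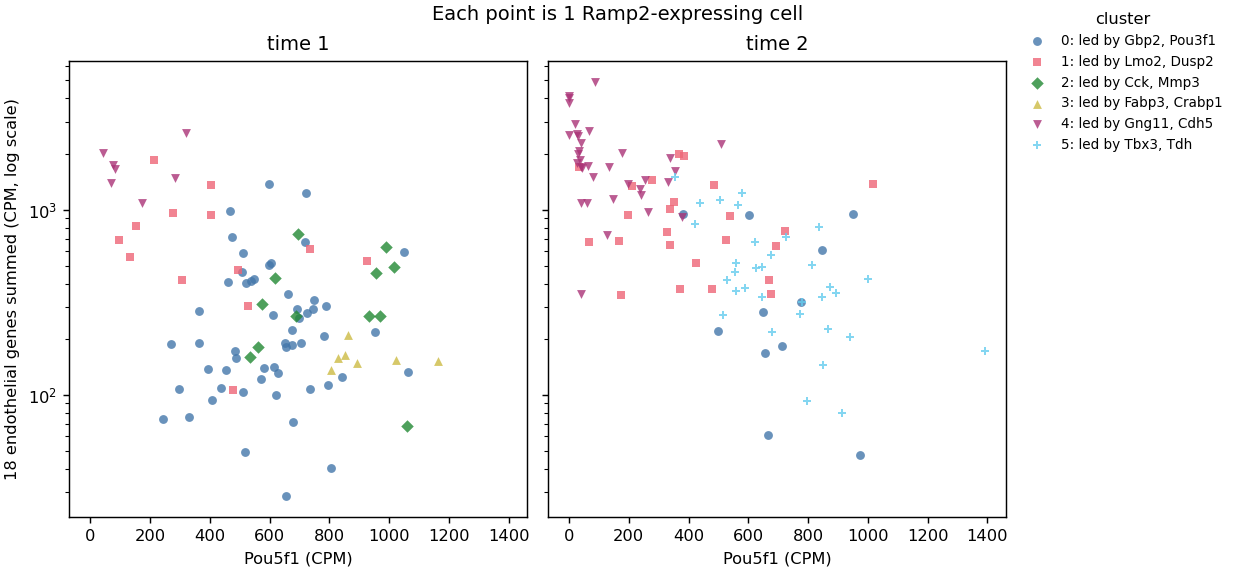
Summed level of the 18 endothelial genes (CPM, logarithmic axis) against Pou5f1 (CPM) in each Ramp2-expressing cell, at time 1 (left) and time 2 (right), with colour and shape giving the cluster. The Gng11-led cells lie at low Pou5f1 (median 72.5 CPM) and high endothelial levels (median 1724 CPM), and the Gbp2-led, Fabp3-led and Tbx3-led cells at Pou5f1 medians of 623 to 862 CPM.

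The limit on Gata4, Gata6, Sox7 and Sox17 left out cells with still more endothelial RNA. Sox7 and Sox17 are transcription factors of endoderm and also of endothelium. Of the barcodes with at least 5 Ramp2 UMIs, this sum left out 11 at time 1 and 54 at time 2. In 6 and 27 of them, Gata4 and Gata6 alone stayed under 8 UMIs. Those 27 cells of time 2 had the endothelial genes at 2737 CPM, against 850 CPM in the chosen cells of that library, with Cdh5 at 275 CPM in 24 of 27 cells, Kdr at 228 CPM in all 27, Plvap at 403 CPM and Pou5f1 at a median of 80.2 CPM. The 6 cells of time 1 had them at 1312 CPM, against 347 CPM. Col4a1 was at 475 CPM in the 27 cells of time 2 and 239 CPM in the 6 of time 1, against 182 and 45.4 CPM in the chosen cells. Calcrl was at 24.03 CPM, with a UMI in 14 of the 27 cells of time 2, and at 36.2 CPM in 3 of the 6 of time 1, above the 4.63 and 0.744 CPM of the chosen cells. The barcodes with 8 or more UMIs of Gata4 and Gata6 held other RNA: at time 1 the 5 such cells had 3.46 CPM of Cdh5 and 730 CPM of Dab2 with Cubn at 208 CPM, genes of primitive and parietal endoderm uptake. At time 2 the 27 such cells were mixed, with a median endothelial level of 192 CPM and a highest value of 8788 CPM, and 5 of them had at least 4 endothelial genes at 10000 UMIs. With Sox7 and Sox17 taken out of the sum, a setting added after seeing these values, the rule found 99 cells at time 1 and 130 at time 2, and the share at time 2 was 0.459%.

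**Figure D5:**
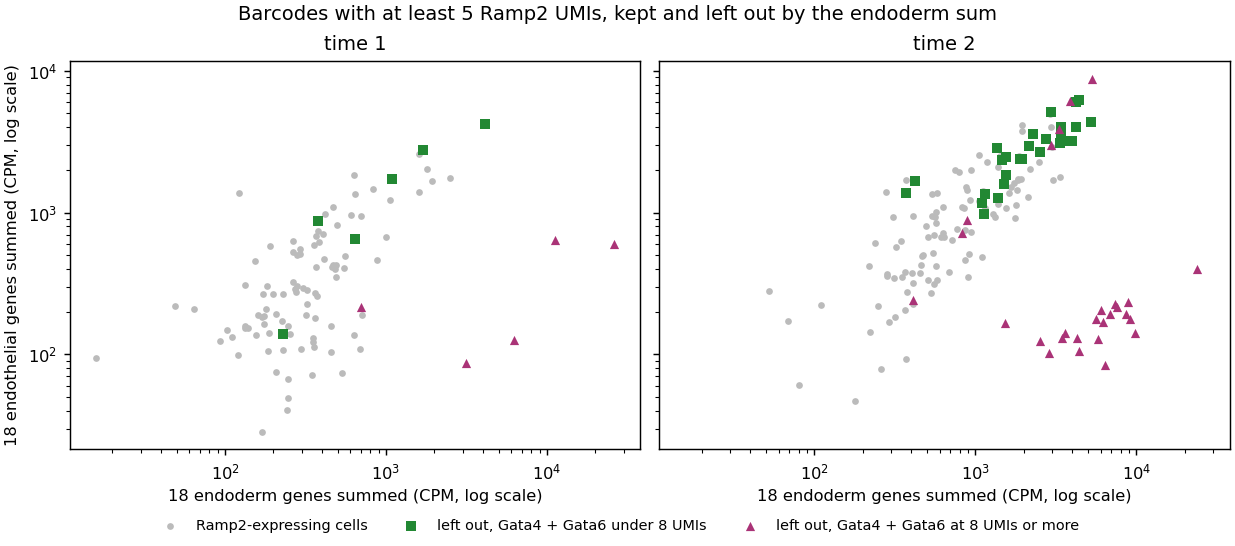
Summed level of the 18 endothelial genes against that of 18 endoderm genes (CPM, both axes logarithmic) in barcodes with at least 5 Ramp2 UMIs, at time 1 (left) and time 2 (right): grey, Ramp2-expressing cells; green squares, cells left out by the endoderm sum with Gata4 and Gata6 under 8 UMIs; purple triangles, left out with 8 or more. Most green squares lie at the upper end of the grey points, and most purple triangles lie below and to the right of them. The endoderm genes include Col4a1, Col4a2 and Sparc.

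Other barcodes held Kdr, Fli1 and Cdh5 with fewer than 5 Ramp2 UMIs. Those with at least 6 UMIs of the 3 genes together numbered 26 at time 1 and 46 at time 2, a limit set after the values had been seen, so their endothelial level (581 and 590 CPM) restates the choice. They had Etv2 at 181 and 148 CPM, Lmo2 at 78.0 and 77.1 CPM, and Ramp2 at 17.5 and 28.3 CPM. At time 2 they also held endoderm RNA, with Dab2 at 96.1 CPM in 13 cells, Gata6 at 42.2 CPM and Cubn at 40.7 CPM in 5 cells. The chosen cells had 5.09 CPM of Dab2 and 0.154 CPM of Cubn. The limit on Gata4, Gata6, Sox7 and Sox17 applied to the chosen cells and not to these barcodes, so these values are not compared on equal terms.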

How the data were processed

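Single-cell RNA was captured and sequenced with 10x Genomics 3′ chemistry, with 1 library per time point. Per the submitters' processing notes, bcl2fastq 2.20.0.422 and Cell Ranger 6.1.2 were used, with mm10 and GRCm38. The deposited files hold raw counts of UMIs per gene and barcode, as the authors made them (145288 and 52242 barcodes, 32285 genes). The lipid tags that mark the cell lines were not analysed here. The cells and gene lists were chosen with earlier results of these data known, and the clusters and the added alternatives after seeing the data. Barcodes with at least 18000 UMIs, 1000 genes and at most 10% mitochondrial UMIs were kept. UMIs of the chosen cells and of all other kept barcodes were summed, scaled to CPM, and compared as log2 ratios with a pseudocount of 1 CPM for genes at 10 CPM or more in either group; called means at least 2-fold. Named genes are the 15 with the highest and the 15 with the lowest ratio, ranked on the ratio nearer 0 of the 2 libraries, among genes of the same sign and at 20 CPM or more in both, without rule, mitochondrial and ribosomal protein genes, plus genes of the lists. With 1 library per group there is no test across replicates. Intervals are exact 95% Poisson (CPM) or Clopper-Pearson (shares). Thinning drew 10000 UMIs per barcode without replacement. Neighbours were found in 30 principal components of 2000 variable genes without the 15 rule genes, and clusters with the Leiden method at resolution 0.5 on the chosen cells. Scrublet scores ranked possible doublets. Tools were Python 3.11.15, scanpy 1.11.5, scipy 1.17.1 and, for the scaling alternative, edgeR 4.0.16 (normalization factors only). Only the comparison of summed counts was tested on simulated data, which had no spread between cells. Promoter sequences are from RefSeq (GRCm38.p6), and gene positions from the GENCODE M21 annotation of GRCm38.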

Additional observations from a re-analysis of the deposited data

How the results depend on the processing

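No paired analysis was possible because there is 1 library per time point. Dropping called doublets could not be run, since none were called; the 10% highest scores were left out instead, which moved the genes lower at time 2 from 122 to 294 and those higher from 363 to 515. The minimum on Ramp2 moved most values. At 3 or more UMIs the share was 1.95% at time 1 and 0.759% at time 2, with 6 genes higher at time 1, and 157 higher and 57 lower at time 2. At 10 or more it was 0.0616% and 0.170%, with 386 higher and 289 lower at time 1 and 666 and 313 at time 2. Leaving out cells of 5 or 6 UMIs gave 0.162% and 0.258%, with 150 higher at time 1 and 207 lower at time 2. The share was 0.460% at time 1 with at least 30000 UMIs per barcode, and 0.505% and 0.297% after thinning. Without Sox7 and Sox17 in the sum it was 0.459% at time 2, with 585 higher and 192 lower. Without barcodes over 250000 UMIs, 92 genes were higher at time 1 and the median over all genes moved from -0.085 to 0.023. A pseudocount of 5 CPM gave 37 and 62 lower genes. With no CPM minimum, 130 were higher and 145 lower at time 1, and 701 and 318 at time 2; at 50 CPM, 10 and 17, and 98 and 35. With 50 neighbours the shares of chosen neighbours were 14.5% and 43.8%, and after thinning 14.4% at time 1. Of 780 named-gene values under alternatives, 486 stayed within their counting interval, 290 moved more, and 4 reversed: against barcodes passing the 3 sums, Fbln2 (0.21) and Acta2 (0.16) at time 1 and Thbs1 (0.52) and Acta2 (0.92) at time 2. The cause was not tested. At 3 or more Ramp2 UMIs, Mest (0.83), Igfbp4 (0.75), Col4a1 (0.49), Rnd2 (0.92), F2r (0.57), Col4a2 (0.28) and Phlda1 (0.42) among the higher genes were short of 2-fold at time 1, and at 10 or more Etv2 (0.80) at time 2. Among the lower genes, AU018091 (-0.94) at time 2 was short of it at 3 or more, also with at least 30000 UMIs per barcode (-0.97) or a pseudocount of 5 CPM (-0.91), and with that pseudocount Morc1 (-0.95) and Pdgfa (-0.93) at time 1. Without barcodes over 250000 UMIs Sox2 (-0.91) was, at time 1. With 94 and 103 cells, a gene with few UMIs is limited by counting error, and with 1 library each, differences between time points cannot be told apart from differences between libraries.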

Other observations

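Further genes of vessel and blood precursors that the gene lists do not hold were picked out here after their values were seen. Cd34, a sialomucin of blood progenitors and endothelium, was at 6.91 against 1.56 CPM in the Ramp2-expressing cells of time 1 and at 36.2 against 1.02 CPM at time 2. Ets1, an ETS transcription factor of endothelium and lymphocytes, was at 19.1 against 3.91 CPM and 59.1 against 2.66 CPM. Cbfa2t3, a corepressor that binds the Tal1 complex, was at 10.7 against 1.26 CPM and 40.6 against 1.15 CPM. Myzap, a junction protein of heart and endothelium, was at 14.03 against 1.31 CPM and 50.9 against 0.910 CPM. Of 12 immediate early and heat shock genes, 10 reached the minimum at time 1 and 9 at time 2. None was 2-fold higher at time 1 (0.713% of all genes). At time 2 Atf3 (51.2 against 11.95 CPM) and Jun (101 against 39.1 CPM) were (4.87% of all genes). Choosing by a Ramp2 count of at least 2 after thinning each barcode to 10000 UMIs gave 131 cells at time 1, of which 26 were among the Ramp2-expressing cells described above, and 84 at time 2, of which 56 were.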
